A study of Mus musculus with 18 samples.

Results

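Early postnatal maturation of the normal lens was examined by comparing whole lenses of wild type (wt) mice at 14 days of age with those at 2 days. The comparison holds 6 of the 18 arrays of the series, 3 at each age, and was read over 12422 probe sets, which give 8251 genes a probe set of their own. Each array carried the RNA of an independent pool of 4 to 8 lenses, hybridised to the Affymetrix Murine Genome Array U74Av2, an oligonucleotide array on which a gene is read by 1 or more probe sets. The other arrays of the series were wt lenses of 42 days, which entered the fit only for its estimate of the spread, and 9 arrays of lenses from transgenic animals, labelled MT-dbl and here called Dbl, in which the mouse metallothionein promoter drives the Dbl oncogene. The wt mice carry no transgene and received no treatment, and their strain was not given in the sources used here. Because lenses were pooled, the p-values measure the spread between pools and not between animals.

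The lens consists of a single sheet of epithelial cells on its anterior face and a mass of fiber cells that arise from this sheet at the equator. Epithelial cells divide, leave the cell cycle, elongate, fill with crystallins, join through connexins and aquaporin 0 (Mip), and finally lose their nuclei and organelles. Before birth the lens is fed by a capillary net, the tunica vasculosa lentis, and by the hyaloid vessels of the vitreous, which regress in the first weeks of life with the help of macrophages. Mouse eyelids open near the end of the second week, so lenses of 2 days came from closed eyes with fetal vessels, and lenses of 14 days from eyes at about the time of opening. Only RNA of whole lenses was measured, so fewer cells of a type and less RNA per cell cannot be told apart.

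Several arrays stood apart from their group. Over 6565 probe sets with a signal, correlations of log2 signal ran from 0.699 to 0.863 within the 2 day group, from 0.779 to 0.939 within the 14 day group and from 0.648 to 0.914 between the groups. The 2 day replicate 1 was most like the 14 day replicate 1 (r = 0.914), and the 2 day replicate 3 was most like the 14 day replicate 2 (r = 0.914). The 2 day replicate 2 was most like an array of Dbl lenses of 2 days (r = 0.924), and its ratio of 5′ to 3′ Gapdh control signal was the lowest of the 6, 0.651 against at least 0.988 on the others. For the Actb control this ratio was 0.407 on that array, 0.433 on the 14 day replicate 1 and at least 0.564 on the others. The 14 day replicate 1 had been deposited at a trimmed mean of 50.4, where the other 5 arrays lay at 500, and was multiplied by 9.92. Labels were kept as given. For the lists that rest on these 2 arrays, values are also given without them, and for single genes where 1 of them set the value.

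No probe set passed the test at an adjusted p under 0.05 in limma. The lowest adjusted p was 0.827, so none of the genes described below passed. Of all probe sets, 177 were higher at 14 days (1.42%) and 238 lower (1.92%) at an unadjusted p under 0.05, 415 or 3.34% in all. A plainer reading asks whether all 3 arrays of one age lie beyond all 3 of the other, here called no overlap. In this sense 333 probe sets were higher at 14 days (2.68%) and 680 lower (5.47%), 1013 or 8.15% in all, which came to 233 (2.82%) and 404 (4.9%) of the 8251 genes. The smallest two-sided exact permutation p that 3 against 3 arrays allow is 0.1. If the ages did not differ, a share of about 0.1 of the probe sets would lie without overlap. The 8.15% seen does not exceed that share, nor do the 3.34% exceed the 0.05 of their threshold. Absence of overlap is therefore a description of a gene and not a call. With the methods' threshold of a 1.5-fold ratio of means added, 246 probe sets were higher (1.98%) and 510 lower (4.11%). By the sign of the fitted change alone, 44.4% of the probe sets were higher and 55.6% lower, and 46.0% of the genes were higher and 54.0% lower, with a median log2 change of -0.04 over genes.

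**Figure D1:**
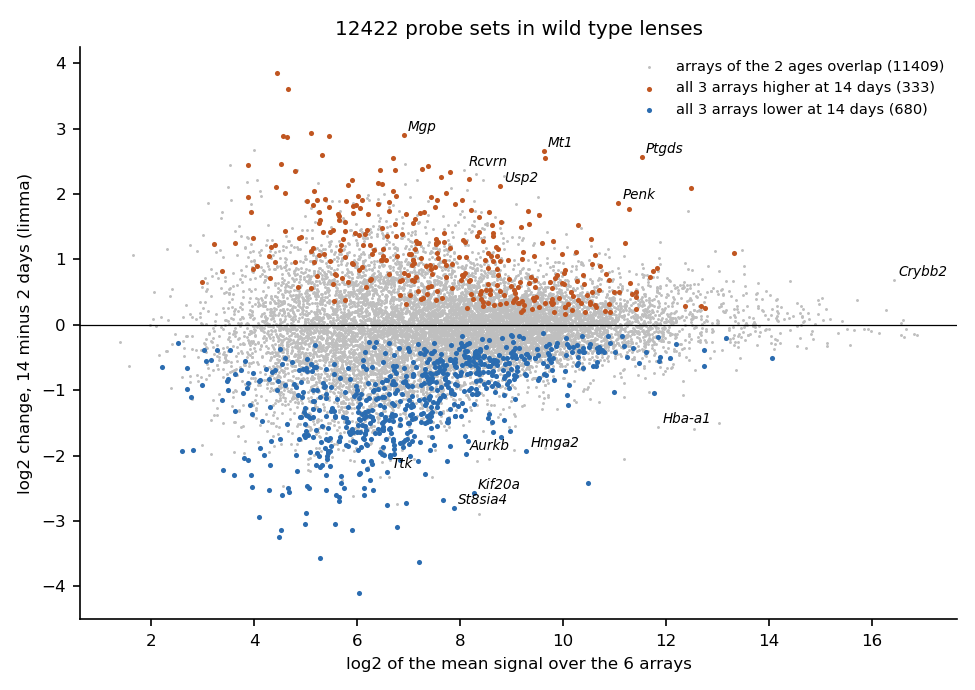
Fitted log2 change from 2 to 14 days (vertical axis) against log2 of the mean signal over the 6 arrays (horizontal axis) for the 12422 probe sets of wt lenses. Orange points mark the 333 probe sets higher and blue points the 680 lower at 14 days on all 3 arrays, and the spread of the changes is widest at low signal.

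The spread between pools set the limit of what could be called. The median SD of log2 signal was 0.61 among the 2 day arrays and 0.55 among the 14 day arrays, and the median standard error (SE) of a fitted change was 0.59. The SE also draws on the 42 day wt arrays, of which replicates 2 and 3 had been deposited at trimmed means of 24.2 and 48.1. On the 42 day replicate 3 the 5′ to 3′ Gapdh ratio was 0.294. Changes of more than 1 on the log2 scale, in either direction, were fitted for 1533 probe sets (12.3%). In what follows the signals of an age are given in the order of replicates 1, 2 and 3, after scaling to a common trimmed mean of 500, and log2 changes are 14 minus 2 days with their SE. Counts of list members without overlap are to be read beside the shares of all genes, 2.82% higher and 4.9% lower.

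The 15 genes named as higher at 14 days are those with the smallest p among the bright genes without overlap. Ptgds, the lipocalin type prostaglandin D synthase that pigmented and ciliary epithelia secrete, gave signals of 902, 404 and 1599 on the 2 day arrays and 5359, 4342 and 5140 on the 14 day arrays. The ages were far apart on every array, and the log2 change of 2.56 (SE 0.44, 5.11-fold in the means) had an unadjusted p of 8.64e-05 and an adjusted p of 0.827 in limma. A further probe set of Ptgds was higher without overlap (log2 change 1.77), while another overlapped (-0.14). Usp2, a deubiquitinating enzyme, gave 205, 98.8 and 204 on the 2 day arrays and 816, 739.7 and 565 on the 14 day arrays, a log2 change of 2.12 (SE 0.39), and its other probe set overlapped (0.64). Serpina3n, a secreted inhibitor of serine proteases, gave 149, 129 and 569.8 on the 2 day arrays and 1441, 1023 and 1515 on the 14 day arrays (log2 change 2.56, SE 0.50). The 2 day replicate 3 lay well above the other two 2 day arrays for this gene, and without it Serpina3n was the single probe set called, with an adjusted p of 0.0325 in limma.

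Penk, Fbln1, Col9a1, Apoe and Ctsh followed among the 15. Penk, which encodes the enkephalin precursor, gave 656, 1284 and 836 on the 2 day arrays and 2376, 2890 and 4905 on the 14 day arrays (log2 change 1.86, SE 0.39), with a second probe set also higher without overlap (1.65) and a very dim one that overlapped. Fbln1, which encodes the matrix protein fibulin 1, gave 839, 461 and 601 on the 2 day arrays and 2799, 1207 and 1637 on the 14 day arrays (log2 change 1.52, SE 0.36), and a second of its probe sets was also higher without overlap (1.73) while the remaining ones overlapped. Col9a1, a chain of the type IX collagen of the vitreous and cartilage, gave 1450, 1293 and 1334 on the 2 day arrays and 2422, 2988 and 4624 on the 14 day arrays (log2 change 1.25, SE 0.30). These 3 genes had their groups clearly apart, with the 14 day means 2.46 to 3.66 times those at 2 days. Apoe, the lipid carrier apolipoprotein E, gave 5090, 705 and 2372 on the 2 day arrays and 7452, 9050 and 9708 on the 14 day arrays (log2 change 2.09, SE 0.55), with the lowest value on the 2 day replicate 2 and a change of 1.32 without that array. Mgp, matrix Gla protein, an inhibitor of tissue calcification, lay below the median signal and went from 32.4, 23.1 and 28.7 to 173, 192 and 273 (log2 change 2.91, SE 0.64, 7.58-fold). The lysosomal protease Ctsh gave 82.3, 104 and 45.5 on the 2 day arrays and 345, 318 and 455 on the 14 day arrays (log2 change 2.33, SE 0.53).

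Mt1 and Hspa1a were 2 further genes of the 15. Mt1, a metallothionein that binds zinc and copper, gave 459.7, 49.99 and 315 on the 2 day arrays and 720.0, 1742 and 1459 on the 14 day arrays (log2 change 2.66, SE 0.71). Hspa1a, the inducible heat shock protein of the Hsp70 family, gave 195, 46.2 and 83.2 on the 2 day arrays and 235, 463 and 714 on the 14 day arrays (log2 change 2.23, SE 0.59). For both genes the groups did not overlap, the lowest 14 day array was replicate 1, and for Hspa1a it came close to the highest 2 day array. The remaining ones of the 15 genes named in this direction were Stx4a, Map4, Rap1gap, Serping1 and Cdk5, with log2 changes from 0.94 to 1.58. Serping1, the C1 inhibitor of the complement cascade, gave 309, 336 and 95.1 on the 2 day arrays and 766, 523 and 657 on the 14 day arrays.

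The 15 genes named in the lower direction were led by Cop1, Kif20a and Hmga2. Cop1, a ubiquitin ligase, gave 702, 554 and 749 on the 2 day arrays and 189.6, 128 and 335 on the 14 day arrays (log2 change -1.72, SE 0.42), but another of its probe sets was higher at 14 days without overlap (0.51), so the 2 probe sets disagree. Kif20a, a kinesin of cytokinesis, gave 225, 1139 and 244 on the 2 day arrays and 40.02, 50.03 and 148 on the 14 day arrays (log2 change -2.57, SE 0.75), and its second probe set was lower without overlap too (-3.09). Hmga2, an architectural chromatin protein of growing embryonic tissue, gave 382, 1447 and 1206 on the 2 day arrays and 161, 235 and 318 on the 14 day arrays (log2 change -1.93, SE 0.57). Both genes were lower on every 14 day array, and for both the 2 day replicate 2 held the highest value. Capn3, a calcium-dependent protease with splice forms of the lens, gave 4298, 7268 and 2742 on the 2 day arrays and 2243, 1758 and 2496 on the 14 day arrays (log2 change -1.04, SE 0.36), and its other probe sets had log2 changes of -1.28 and -1.52 with overlapping groups. Smc2, a subunit of the condensin that packs chromosomes, gave 148, 907 and 335 on the 2 day arrays and 94.0, 127 and 93.1 on the 14 day arrays (log2 change -1.78, SE 0.64). St8sia4, a polysialyltransferase, gave 68.4, 1131 and 111 on the 2 day arrays and 43.9, 48.5 and 11.9 on the 14 day arrays, with a value on the 2 day replicate 2 far above all others (log2 change -2.80, and -1.57 without that array). The others were Dntt, Mcm3, U2af1, Cib1, Cdca7, Dusp2, Snx17, Eif3e and Tmed9, with log2 changes from -2.09 to -0.92. The largest of these, -2.09, was that of Eif3e, and another probe set of Eif3e overlapped at -0.64. Other probe sets of Dntt overlapped too (-1.09 and 0.12), and that of Cib1 was lower without overlap (-2.01).

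**Figure D2:**
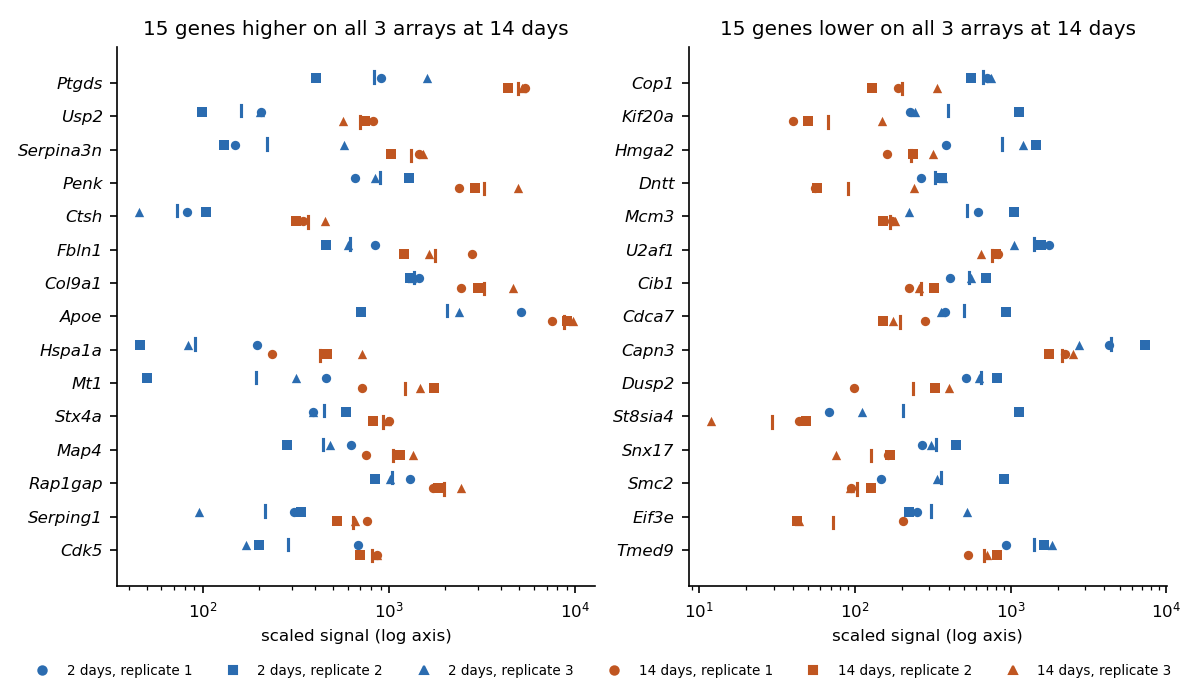
Scaled signal (log axis) of the 15 genes named as higher (left) and the 15 named as lower (right) at 14 days, with 1 point for each array of wt lenses and a bar for the geometric mean of each age. In every gene the 3 arrays of 14 days (orange) lie beyond the 3 of 2 days (blue), and none of the 30 passed the adjusted test.

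Genes of cell division were the group with the largest median difference among the lists examined, and it depended on 1 array. Of 35 measured members of the list of G2/M and mitosis genes, which build the spindle and drive chromosome segregation, 32 were fitted lower and 3 higher at 14 days, against 54.0% lower over all genes. Their median log2 change was -1.19, against -0.04 over all genes. Without overlap, 9 members were lower and 0 higher, 25.7% against 4.9% of all genes lower. No member passed the adjusted test. The summed signal of the list was 11680, 56812 and 13279 on the 2 day arrays and 10077, 13624 and 13807 on the 14 day arrays, so replicate 2 alone set the 2 day level apart. Without that array 25 members were lower and 10 higher with a median of -0.42, and 2 were higher and 9 lower without overlap (5.71% and 25.7% against 6.28% and 9.3% of all genes in that setting), genes apart at 3 against 3 arrays being apart there by construction. Without the 14 day replicate 1 the median was -0.98, with 31 members lower.

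The 9 members without overlap were Aurkb, Birc5, Ccnb2, Cdc25c, Cenpa, Kif20a, Kif2c, Nek2 and Ttk. Aurkb, the kinase of the chromosomal passenger complex, gave 89.9, 1008 and 328 on the 2 day arrays and 84.6, 68.3 and 83.8 on the 14 day arrays (log2 change -1.98, SE 0.74). Birc5, survivin, of the same complex, gave 193, 1279 and 304 on the 2 day arrays and 141, 145 and 188 on the 14 day arrays (log2 change -1.43, SE 0.70). In both genes the 14 day arrays were tightly grouped and the 2 day arrays spread over several-fold. Ccnb2, cyclin B2, gave 649.9, 3464 and 870.3 on the 2 day arrays and 453, 556 and 611 on the 14 day arrays (log2 change -1.22, SE 0.52). Cdc25c, the phosphatase that activates Cdk1 at mitotic entry, gave 161, 496 and 197 on the 2 day arrays and 38.5, 111 and 79.4 on the 14 day arrays (log2 change -1.84, SE 0.62). Cenpa, the histone H3 variant of centromeres, gave 434, 731 and 258 on the 2 day arrays and 246, 229 and 222 on the 14 day arrays (log2 change -0.90, SE 0.41). The margin between the lowest 2 day array and the highest 14 day array was small for Aurkb, Birc5, Ccnb2 and Cenpa, and wider for Cdc25c, whose dim second probe set overlapped (-0.30). Kif2c and Nek2, a kinesin and a centrosomal kinase, had log2 changes of -1.19 and -0.75, and Ttk, a checkpoint kinase of the spindle, had -2.25 at low signals (19.8, 19.4 and 22.3 at 14 days).

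Other well known members overlapped. Top2a, topoisomerase II alpha, gave 43.8, 825 and 92.9 on the 2 day arrays and 69.6, 34.3 and 26.4 on the 14 day arrays (log2 change -1.91, SE 1.05). Cdk1, the mitotic kinase, gave 204, 2205 and 219 on the 2 day arrays and 257, 90.4 and 235 on the 14 day arrays (log2 change -1.39, SE 0.81). For these genes 2 day replicates 1 and 3 lay within or near the range of the 14 day arrays, and replicate 2 lay far above it. Without that array the log2 changes were -0.68 for Top2a and -0.26 for Cdk1. Mki67, the Ki-67 antigen, had a log2 change of -0.01 (SE 0.61) by its brightest probe set and of -2.74 by a second, dimmer one, with overlap in both. Ube2c, Cenpe and Tacc3 were the 3 members fitted higher, with log2 changes of 0.32, 0.50 and 0.26.

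**Figure D3:**
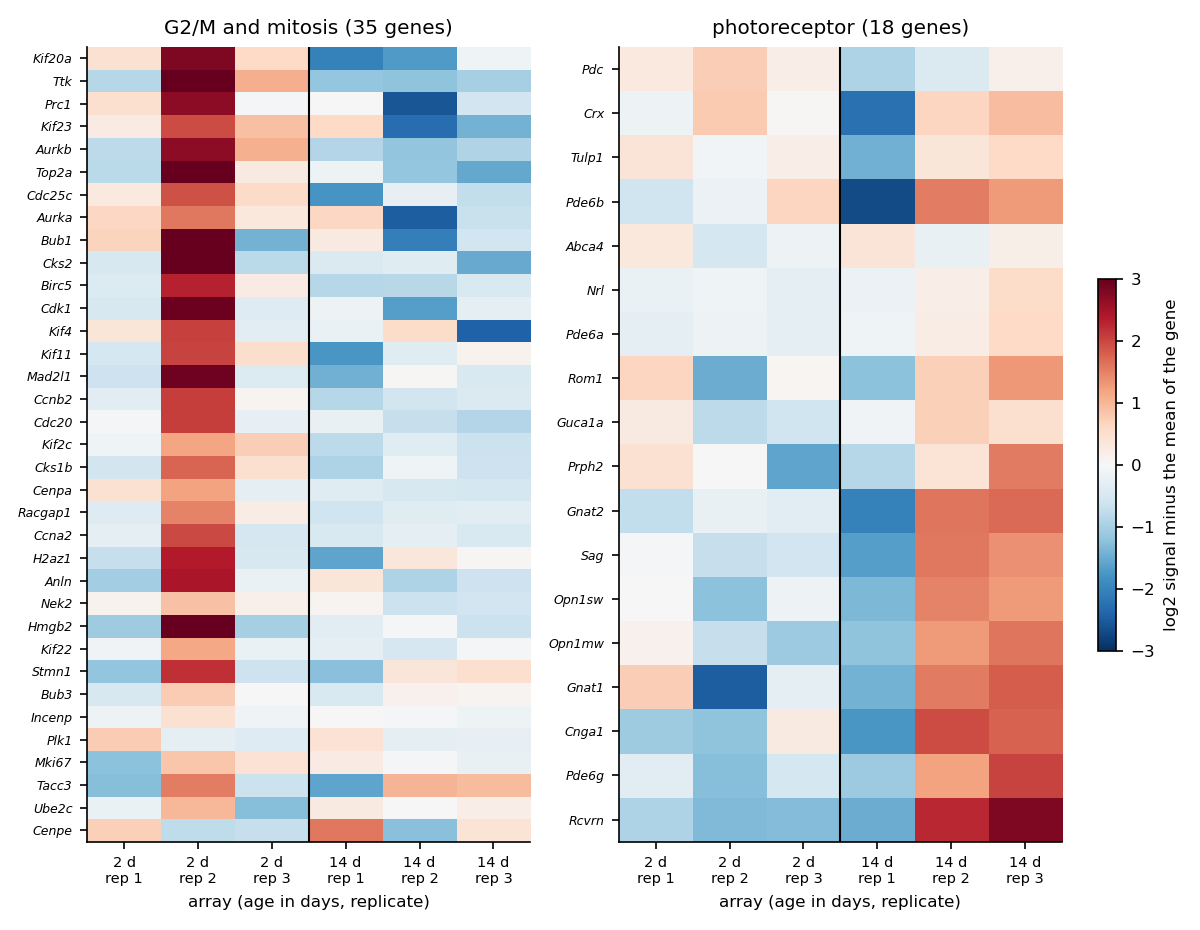
Log2 signal of each gene minus its mean over the 6 arrays (color scale, -3 to 3) for the 35 measured G2/M and mitosis genes (left) and the 18 measured photoreceptor genes (right), with genes in rows and wt arrays in columns. The column of 2 day replicate 2 is high for most mitotic genes, and among the 14 day arrays replicates 2 and 3 are high for most photoreceptor genes while replicate 1 is low.

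Promoter windows of these genes were searched for sequence elements known in cell cycle promoters. Windows of 250 bases before to 50 after the start site, taken from RefSeq on GRCm38.p6, were found for 29 of the 35 G2/M genes (31 windows), and both strands were searched. TTTGAA, the core of the cell cycle homology region, occurred in 74.2% of these windows, against 17.9% of all 32851 windows, and CCAAT in 83.9% against 37.4%. CCAAT was not particular to these genes, with 63.6% of the windows of the clock list and 66.7% of those of the heat shock list, where TTTGAA occurred in 0% and 7.14%. GGGCGG, a GC box, occurred in 83.9% against 35.7% of all windows, and in 86.4% and 88.1% of the clock and heat shock windows. A match is a description of letters and shows no binding. Among the members lower without overlap, 6 had a window, of which 4 held CCAAT and 4 held TTTGAA (66.7% each). The windows of 3 of these members are shown because each holds CCAAT upstream of a TTTGAA near the start site. Capitals mark CCAAT and TTTGAA or their reverse complements, ATTGG and TTCAAA, and each window reads along its gene.
Ccnb2 (chr9:70421505-70421804, minus strand): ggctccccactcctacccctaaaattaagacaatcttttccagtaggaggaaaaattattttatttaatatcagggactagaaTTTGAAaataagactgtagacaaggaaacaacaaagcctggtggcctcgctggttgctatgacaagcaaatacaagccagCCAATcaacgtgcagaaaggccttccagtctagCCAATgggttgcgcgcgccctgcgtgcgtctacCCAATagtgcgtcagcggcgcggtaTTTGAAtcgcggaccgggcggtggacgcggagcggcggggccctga
Ttk (chr9:83834439-83834738, plus strand): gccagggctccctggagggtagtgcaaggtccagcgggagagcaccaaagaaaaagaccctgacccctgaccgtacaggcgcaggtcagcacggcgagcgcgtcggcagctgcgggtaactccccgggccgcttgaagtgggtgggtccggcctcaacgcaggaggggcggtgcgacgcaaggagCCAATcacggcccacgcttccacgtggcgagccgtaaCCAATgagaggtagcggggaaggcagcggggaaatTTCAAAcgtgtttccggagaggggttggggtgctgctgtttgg
Cenpa (chr5:30666636-30666935, plus strand): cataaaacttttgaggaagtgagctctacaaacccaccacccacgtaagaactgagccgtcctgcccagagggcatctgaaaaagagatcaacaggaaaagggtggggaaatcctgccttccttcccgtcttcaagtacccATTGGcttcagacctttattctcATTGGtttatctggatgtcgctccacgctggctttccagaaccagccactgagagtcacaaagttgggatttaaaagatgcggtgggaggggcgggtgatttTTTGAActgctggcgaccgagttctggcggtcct
With the start site as base 1, the Ccnb2 window held CCAAT from bases -87, -54 and -21 and TTTGAA from bases -167 and 5. The Ttk window held CCAAT from bases -65 and -28 and the reverse complement of TTTGAA from base 8. The Cenpa window held the reverse complement of CCAAT from bases -109 and -86 and TTTGAA from base 17.

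Genes of DNA replication and the G1/S transition lay in the same direction with smaller values. Of 35 measured members, 32 were fitted lower and 3 higher, with a median log2 change of -0.60, and 3 were lower without overlap (8.57% against 4.9% of all genes). These 3 were Mcm2, Mcm3 and Mcm6, subunits of the replicative helicase. Mcm3 gave 621, 1056 and 223 on the 2 day arrays and 174, 151 and 181 on the 14 day arrays (log2 change -1.65, SE 0.53), and its second probe set overlapped (-1.17). Mcm2 gave 530.2, 877 and 607 on the 2 day arrays and 361, 512 and 308 on the 14 day arrays (log2 change -0.77, SE 0.43). Mcm6 was dim, with 65.4, 89.1 and 54.2 on the 2 day arrays and 23.4, 5.12 and 29.3 on the 14 day arrays, and its sign turned when low signals were raised to the 40th percentile. For Mcm3 the 14 day arrays lay close to each other while the 2 day arrays spread widely. Pcna, the sliding clamp of the polymerases, gave 671, 8038 and 2054 on the 2 day arrays and 778, 1426 and 1008 on the 14 day arrays (log2 change -1.10, SE 0.67) with overlap. Its change was -0.18 without the 2 day replicate 2. Ccnd1, cyclin D1, gave 560.1, 3259 and 913 on the 2 day arrays and 512, 678 and 730.4 on the 14 day arrays (log2 change -0.90, SE 0.54) with overlap, although its second probe set was lower without overlap (-0.69). The summed signal of the list was 10964, 30721 and 12035 at 2 days and 9845, 9990 and 10168 at 14 days, without overlap but with replicate 2 far above the other 2 day arrays. Without the 2 day replicate 2, 25 members were lower and 10 higher with a median of -0.18.

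The E2F consensus was looked for in the windows of this list. TTCCCGC occurred in 37.8% of 37 windows of 29 genes, against 4.6% of all windows, and TTGGCGC in 18.9% against 2.45%. The window of Mcm3 is shown because both forms lie within its first 50 transcribed bases, in capitals with their reverse complements GCGGGAA and GCGCCAA. The TTGGCGC and its reverse complement overlap.
Mcm3 (chr1:20820263-20820562, minus strand): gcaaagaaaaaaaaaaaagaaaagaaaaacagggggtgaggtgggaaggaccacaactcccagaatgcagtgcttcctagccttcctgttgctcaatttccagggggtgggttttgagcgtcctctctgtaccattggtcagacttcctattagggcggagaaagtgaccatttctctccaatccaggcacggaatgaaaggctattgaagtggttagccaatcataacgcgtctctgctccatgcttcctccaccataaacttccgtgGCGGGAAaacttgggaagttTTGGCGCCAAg
The matches began at bases 20, 40 and 43. The Mcm2 window held neither form, and that of Mcm6 held TTGGCGC from bases -109 and -46.

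Regulators that hold cells out of the cycle, and chromatin genes of growing tissue, were read beside the cycling genes. Of 19 measured CDK inhibitors and cell cycle exit genes, 13 were lower and 6 higher with a median log2 change of -0.25, and none was free of overlap. Cdkn1c, the CDK inhibitor p57 that differentiating lens fibers express, gave 10057, 15225 and 13598 on the 2 day arrays and 6105, 10271 and 8023 on the 14 day arrays (log2 change -0.68, SE 0.36). Cdkn1b, p27, was dim and gave 123, 35.2 and 116 on the 2 day arrays and 42.5, 93.8 and 22.7 on the 14 day arrays (log2 change -0.83, SE 0.78). Neither inhibitor separated the ages. Of 28 chromatin and developmental regulators, 22 were lower and 6 higher with a median of -0.41, and Hmga2 and Cbx1 were lower without overlap. Cbx1, a heterochromatin protein, gave 183, 252 and 374 on the 2 day arrays and 134, 174 and 133 on the 14 day arrays (log2 change -0.82). Sox11, a transcription factor of embryonic progenitors, gave 205, 5509 and 178 on the 2 day arrays and 93.3, 251 and 192 on the 14 day arrays, (log2 change -1.83, SE 1.25), with 1 array, the 2 day replicate 2, far above the rest and a change of -0.21 without it. Without that array 17 of the 28 were lower, with a median of -0.10.

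**Figure D4:**
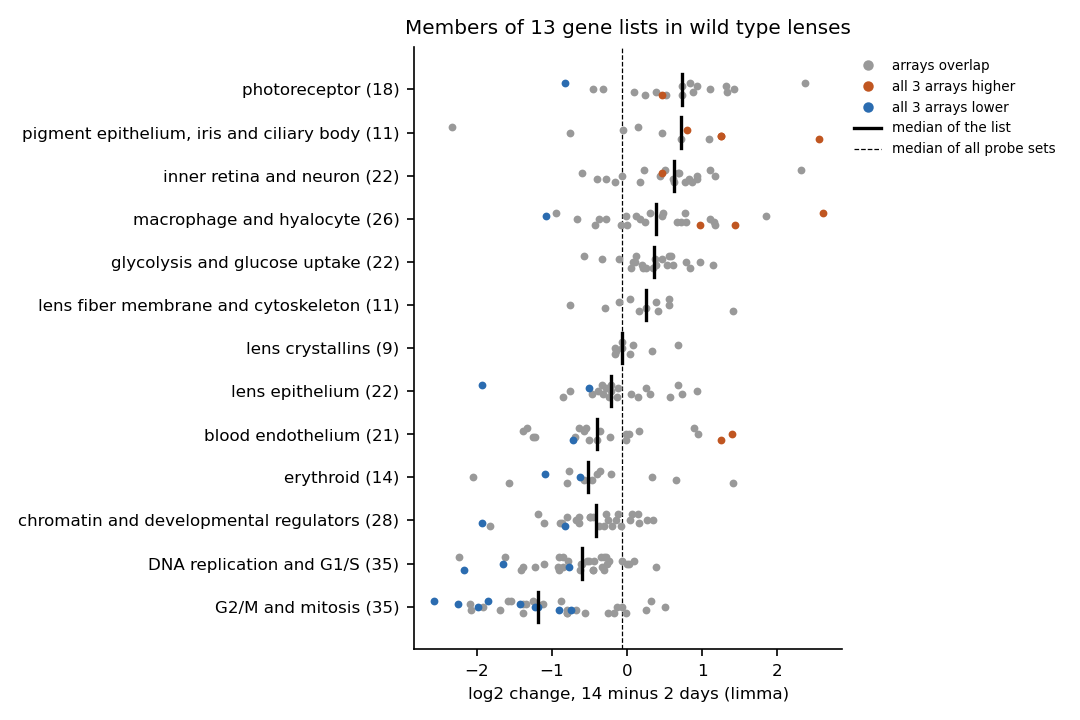
Fitted log2 change from 2 to 14 days of the measured members of 13 gene lists in wt lenses, with 1 point per gene, the number of measured members in brackets, a bar for the median of the list and a dashed line for the median of all probe sets. G2/M, replication and chromatin genes lie to the left, crystallins lie close to the dashed line, and retinal and pigment epithelium genes lie to the right with most members overlapping between the ages (gray).

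Crystallins, the proteins that fill lens fibers, were near the top of the signal range at both ages. Between Dbl and wt lenses, the authors found larger differences by qRT-PCR than on the arrays for Cryaa, Cryba1 and Crybb2. Whether changes with age in such bright genes are understated here was not tested. The 9 measured members had log2 changes between -0.16 and 0.68, with a median of -0.06, 4 higher and 5 lower, and 0 without overlap. Cryaa, alpha A crystallin, gave 111949, 105001 and 168654 on the 2 day arrays and 103097, 120759 and 114031 on the 14 day arrays (log2 change -0.16, SE 0.45). Cryba1 gave 87406, 91144 and 130205 on the 2 day arrays and 90354, 90135 and 92493 on the 14 day arrays (log2 change -0.15, SE 0.43). Crygd gave 110408, 95640 and 163578 on the 2 day arrays and 97656, 114724 and 113929 on the 14 day arrays (log2 change -0.15, SE 0.46). For these 3 genes the highest value belonged to the 2 day replicate 3, and the 14 day arrays lay within the range of the 2 day arrays or nearly so. Crybb2, beta B2 crystallin, a later marker of fiber maturation, had the largest change of the list, 0.68 (SE 0.65), from 99909, 18466 and 121811 on the 2 day arrays and 103145, 93793 and 95209 on the 14 day arrays. On the 2 day replicate 2 its signal was several times lower than on any other of the 6 arrays, and without that array the change was -0.18. The list turned with 1 array: without the 2 day replicate 2 all 9 members were fitted lower (median -0.24), and without the 2 day replicate 3 all 9 were fitted higher (median 0.16).

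Membrane and cytoskeletal genes of fibers were read next. Of 11 measured members 8 were higher and 3 lower, with a median log2 change of 0.25 and 0 without overlap. Mip, aquaporin 0, gave 41835, 7230 and 30876 on the 2 day arrays and 30833, 23361 and 21758 on the 14 day arrays (log2 change 0.25, SE 0.57). Bfsp1, filensin, a protein of the beaded filament, gave 53088, 11936 and 27475 on the 2 day arrays and 51412, 23813 and 33305 on the 14 day arrays (log2 change 0.41, SE 0.52). Gja3, connexin 46, gave 9241, 556 and 4841 on the 2 day arrays and 4600, 3398 and 5091 on the 14 day arrays (log2 change 0.56, SE 0.80). All 3 had their lowest value on the 2 day replicate 2 and values on the other 2 day arrays within or above the 14 day range. Without that array their log2 changes were -0.52, -0.15 and -0.64. The summed signal was 209905, 64458 and 185029 at 2 days and 194811, 136716 and 138199 at 14 days. Without the 2 day replicate 2 the direction turned, with 9 members lower, 2 higher and a median of -0.38. Cdh2, N-cadherin, gave 2192, 6949 and 6175 on the 2 day arrays and 1710, 3405 and 3351 on the 14 day arrays (log2 change -0.76, SE 0.57). The defining genes Crybb1, Lim2 and Bfsp2 had no probe set of their own.

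Genes of the lens epithelium were mostly near 0. Of 22 measured members 14 were lower and 8 higher, with a median log2 change of -0.21, and 2 were lower without overlap, Cdh1 and Hmga2 (9.09% against 4.9% of all genes). Cdh1, E-cadherin, the adhesion molecule of the epithelial sheet, gave 711, 968 and 786 on the 2 day arrays and 622, 511 and 598 on the 14 day arrays (log2 change -0.50, SE 0.30). The gap between the ages was narrow, 622 on the highest 14 day array against 711 on the lowest 2 day array. Pax6, the transcription factor needed to form the lens, gave 1596, 3622 and 2501 on the 2 day arrays and 1168, 3149 and 2187 on the 14 day arrays (log2 change -0.28, SE 0.40). Gja1, connexin 43, gave 3195, 8234 and 8100 on the 2 day arrays and 5216, 9128 and 7498 on the 14 day arrays (log2 change 0.25, SE 0.43). Sfrp1, a secreted Wnt antagonist, gave 2957, 1608 and 1983 on the 2 day arrays and 6103, 2112 and 3368 on the 14 day arrays (log2 change 0.73, SE 0.39). None of these 3 separated the ages.

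Transcription factors of lens differentiation gave values on both sides of 0. Of 20 measured members 9 were higher and 11 lower, with a median log2 change of -0.11 and 0 without overlap. Prox1, needed for fiber elongation, gave 2129, 888 and 2980 on the 2 day arrays and 1331, 2134 and 2087 on the 14 day arrays (log2 change 0.02, SE 0.59). Maf, an activator of crystallin genes, gave 1831, 239 and 1176 on the 2 day arrays and 1073, 709.6 and 1100 on the 14 day arrays (log2 change 0.23, SE 1.19). Hsf4, a heat shock factor of the maturing lens, gave 2513, 329 and 656 on the 2 day arrays and 4651, 695 and 1095 on the 14 day arrays (log2 change 0.90, SE 0.80). For Hsf4 replicate 1 was the highest array at both ages, and for Maf and Prox1 the 2 day replicate 2 was the lowest.

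Organelle loss is the last step of fiber maturation, and genes with roles in it were read as a list. Of 25 measured members 17 were higher and 8 lower with a median log2 change of 0.12. Without overlap 1 was higher and 1 lower, beside 2.82% and 4.9% of all genes. Ctsb, the lysosomal protease cathepsin B, gave 2305, 1607 and 1996 on the 2 day arrays and 2552, 2991 and 3705 on the 14 day arrays (log2 change 0.65, SE 0.28), with 3 further probe sets that overlapped at log2 changes of 0.70 to 1.32. Lmnb1, lamin B1 of the nuclear envelope, gave 327, 731 and 267 on the 2 day arrays and 143, 206 and 177 on the 14 day arrays (log2 change -1.20, SE 0.46). The autophagy gene Map1lc3b had a log2 change of 0.51 and Atg5 one of -0.45, both with overlap. The list was 12 higher and 13 lower, with a median of -0.02, without the 2 day replicate 2. Dnase2b, the nuclease that degrades fiber DNA, had no probe set of its own.

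Loss of the fetal vessels was followed through endothelial, pericyte, red cell and macrophage genes. Of 21 measured genes of blood endothelium 15 were lower and 6 higher, with a median log2 change of -0.40. Without overlap 2 were higher and 1 lower, beside 2.82% and 4.9% of all genes. Of the 21, 11 were dim, with a mean signal under 129, the 40th percentile of the arrays. Pecam1, the platelet endothelial adhesion molecule, gave 174, 312 and 127 on the 2 day arrays and 324, 119 and 173 on the 14 day arrays (log2 change -0.02, SE 0.67). Cdh5, VE-cadherin, gave 68.0, 223 and 190.2 on the 2 day arrays and 36.7, 65.3 and 94.4 on the 14 day arrays (log2 change -1.22, SE 0.66). Kdr, the main receptor for VEGF, gave 309.8, 1129 and 407 on the 2 day arrays and 236, 303 and 526 on the 14 day arrays (log2 change -0.64, SE 0.57). None of the 3 separated the ages, and the summed signal of the list, 3904, 4301 and 3355 at 2 days against 3304, 2680 and 3540 at 14 days, overlapped as well. Flt1, a VEGF receptor and decoy that neurons of the retina can also express, was higher without overlap with 80.9, 177 and 92.9 on the 2 day arrays and 237, 267 and 389 on the 14 day arrays (log2 change 1.40, SE 0.44), while its second probe set overlapped (1.36). Ramp2, a subunit of adrenomedullin receptors, was higher without overlap (log2 change 1.25), and Mcam, a cell adhesion molecule of vessels, was lower (-0.72). Without the 2 day replicate 2 the list was 5 higher and 16 lower (median -0.18), and without the 14 day replicate 1 it was 5 and 16 (median -0.44).

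Genes of pericytes and vascular smooth muscle numbered 13, of which 9 were higher and 4 lower with a median log2 change of 0.45. Acta2, smooth muscle actin, gave 676, 32.3 and 667 on the 2 day arrays and 997, 719.8 and 754 on the 14 day arrays (log2 change 1.74, SE 0.92), and 2 of the 2 day arrays lay just under the lowest 14 day array, so that without the 2 day replicate 2 the change was 0.28. Kcnj8 was higher without overlap (18.9, 32.7 and 26.1 against 126, 82.9 and 40.9), while Abcc9, the partner subunit of the same potassium channel, was lower without overlap (127, 150.2 and 126 against 14.6, 88.0 and 111). Without the 2 day replicate 2 the pericyte list was 10 higher and 3 lower with a median of 0.12, and without the 14 day replicate 1 it was 8 and 5 with a median of 0.33. Of 24 angiogenic and regression factors 15 were higher and 9 lower, with a median of 0.22. Vegfa, the main angiogenic factor, gave 289.9, 99.2 and 205 on the 2 day arrays and 401, 259.7 and 193 on the 14 day arrays (log2 change 0.59, SE 0.87), and Angpt2, an antagonist of vessel stability, gave 196, 113 and 289 on the 2 day arrays and 102, 143 and 108 on the 14 day arrays (log2 change -0.67, SE 0.58). Both overlapped. Fzd4, the receptor for norrin in retinal and hyaloid vessels, was lower without overlap with 1012, 1050 and 918 on the 2 day arrays and 445, 725 and 806 on the 14 day arrays (log2 change -0.64, SE 0.31), whereas its dim other probe sets overlapped, and its ligand Ndp gave 166, 149 and 288 on the 2 day arrays and 164, 495 and 457 on the 14 day arrays (log2 change 0.79). Epas1, the hypoxia factor HIF2 alpha, was higher without overlap by 0.46.

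Red cell genes, which report blood in and around the vessels, were led by 1 array. Of 14 measured erythroid members 11 were lower and 3 higher, with a median log2 change of -0.52. Hbb-bh1 and Slc4a1 were lower without overlap, beside 4.9% of all genes. Hba-a1, adult alpha globin, gave 1851, 16578 and 819.6 on the 2 day arrays and 1156, 939 and 889 on the 14 day arrays (log2 change -1.57, SE 0.82). Hbb-b2, an adult beta globin, gave 349, 12183 and 453 on the 2 day arrays and 168, 509.7 and 316 on the 14 day arrays (log2 change -2.05, SE 1.07). Both were high on the 2 day replicate 2, the array that was also high in mitotic genes, and the other 2 day arrays lay far below that array. Without it the log2 changes were -0.32 for Hba-a1 and -0.40 for Hbb-b2. Slc4a1, the band 3 anion exchanger of red cells, gave 370.2, 267 and 325 on the 2 day arrays and 207, 205 and 209 on the 14 day arrays (log2 change -0.62, SE 0.40). The summed erythroid signal was 6184, 35852 and 6761 at 2 days and 4116, 12707 and 11022 at 14 days, and without the 2 day replicate 2 the median of the list was -0.31. The part of blood in the high mitotic and low fiber signals of that array was not tested.

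Macrophage and hyalocyte genes were more often higher than lower. Of 26 measured members 18 were higher and 8 lower with a median log2 change of 0.38, and 3 were higher (11.5% against 2.82% of all genes) and 1 lower without overlap. Ptprc, CD45 of all white blood cells, gave 11.5, 8.87 and 13.6 on the 2 day arrays and 51.9, 72.6 and 82.6 on the 14 day arrays (log2 change 2.60, SE 0.86). Adgre1, the F4/80 antigen, gave 27.6, 33.5 and 24.9 on the 2 day arrays and 85.7, 49.1 and 108 on the 14 day arrays (log2 change 1.43, SE 0.61). Tyrobp, a signaling adaptor of myeloid cells, gave 202, 85.7 and 148 on the 2 day arrays and 266, 272 and 267 on the 14 day arrays (log2 change 0.97, SE 0.70). The groups stood apart in these 3, but Ptprc and Adgre1 were dim, and their even dimmer other probe sets overlapped with values below 0 (-0.20 and -1.71 for Ptprc, -0.26 for Adgre1). Fcer1g, the Fc receptor gamma chain, was lower without overlap (68.0, 28.8 and 23.1 against 19.98, 22.9 and 10.5). C1qa, of the first complement component made by macrophages, gave 392, 156 and 221 on the 2 day arrays and 348, 532 and 718 on the 14 day arrays (log2 change 1.10, SE 0.43), and C1qb gave 10425, 2048 and 4457 on the 2 day arrays and 3350, 5648 and 6378 on the 14 day arrays (log2 change 0.11). Cd68, a lysosomal protein of macrophages, gave 159.8, 291 and 167 on the 2 day arrays and 143, 332 and 235 on the 14 day arrays (log2 change 0.18, SE 0.51), and Lyz2, lysozyme, was dim and overlapped (0.78). The summed signal, 16191, 7022 and 10448 at 2 days against 9796, 13632 and 14389 at 14 days, did not separate the ages. The median of the list was 0.37 without the 2 day replicate 2 and 0.45 without the 14 day replicate 1.

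Genes of the retina, which does not belong to the lens, were higher at 14 days on replicates 2 and 3 but not on replicate 1. Of 18 measured photoreceptor genes 15 were higher and 3 lower with a median log2 change of 0.74, and of 22 inner retina and neuron genes 17 were higher and 5 lower with a median of 0.62. Without overlap the counts were 1 higher and 1 lower (Pde6a and Pdc) and 1 higher (Prkca), beside 2.82% higher and 4.9% lower over all genes. Sag, the arrestin of rods, gave 1518, 975 and 1059 on the 2 day arrays and 500.1, 4712 and 4091 on the 14 day arrays (log2 change 0.87, SE 0.68). Rcvrn, recoverin, gave 63.3, 48.3 and 49.4 on the 2 day arrays and 42.9, 580.0 and 839 on the 14 day arrays (log2 change 2.37, SE 1.01). Snap25, a synaptic fusion protein, gave 1423, 1351 and 2114 on the 2 day arrays and 630.3, 7022 and 5538 on the 14 day arrays (log2 change 0.86, SE 0.70). On replicate 1 these 3 genes were below every 2 day array, and on replicates 2 and 3 they were 2 or more times above. Rlbp1, the retinaldehyde carrier of Müller glia and pigment epithelium, followed the same split with 565, 3239 and 3575 at 14 days against 775, 971 and 872. The summed photoreceptor signal was 8540, 5947 and 6626 at 2 days and 5004, 16522 and 18698 at 14 days. Without the 14 day replicate 1, 17 of 18 photoreceptor genes were higher with a median of 1.40, 13 of them without overlap (72.2% against 9.39% of all genes in that setting), and 20 of 22 inner retina genes with a median of 1.12. The array left out is the one on which these genes were low, and the genes rise and fall together by array. This share therefore largely follows from leaving that array out, and the members are not independent readings. The part of retinal tissue in the other genes that were high on replicates 2 and 3 was not tested.

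Genes of the pigment epithelium, iris and ciliary body, which do not belong to the lens either, separated the ages in a larger share of members. Of 11 measured members 8 were higher and 3 lower with a median log2 change of 0.71, and 4 were higher without overlap (36.4% against 2.82% of all genes), namely Col9a1, Ptgds, Rdh5 and Ttr. Rdh5, a retinol dehydrogenase of the visual cycle, gave 98.0, 69.6 and 83.0 on the 2 day arrays and 319, 138 and 172 on the 14 day arrays (log2 change 1.25, SE 0.50). Ttr, transthyretin, gave 226, 275 and 119 on the 2 day arrays and 326, 352 and 339.9 on the 14 day arrays (log2 change 0.80, SE 0.43). Among the members without overlap, Ptgds and Rdh5 had their highest 14 day value on replicate 1, and Ttr was about equal on the 3 arrays. Col9a1 had its lowest 14 day value on replicate 1. The median signal of the list was also lowest on that array among those of 14 days. It was 319, 599 and 604 at 14 days against 226, 275 and 429 at 2 days, with overlap. The pigment genes proper did not separate the ages: Tyrp1 and Dct overlapped with log2 changes of 0.71 and 0.47. Tyr, tyrosinase, had the largest negative value, -2.33 (SE 1.02), with overlap. The summed signal was 5552, 3869 and 6714 at 2 days and 10236, 13432 and 15796 at 14 days, with no overlap. Without the 2 day replicate 2 the median of the list was 0.20.

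**Figure D5:**
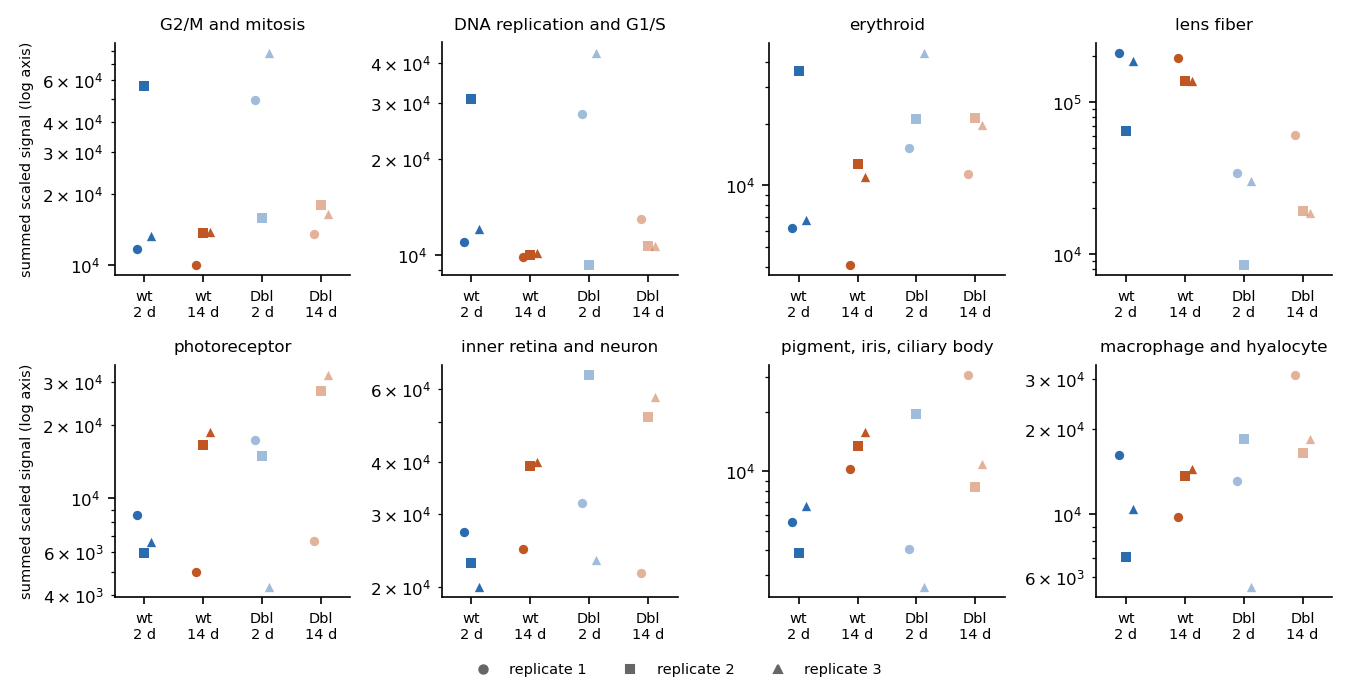
Summed scaled signal (log axis) of the measured members of 8 gene lists on each array of wt and Dbl lenses of 2 and 14 days, with 1 point per array and its symbol giving the replicate. In wt lenses the 2 day replicate 2 is high for mitotic, replication and erythroid genes and low for fiber genes, the 14 day replicate 1 is low for retinal genes, and among the 8 sums those of replication genes and of pigment epithelium, iris and ciliary body keep the ages apart.

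Opening of the eye exposes the lens to light, and clock and immediate early genes were read for it. Of 17 measured circadian clock genes 13 were higher and 4 lower with a median log2 change of 0.26, and Dbp alone was without overlap (5.88% against 2.82% of all genes). Dbp, a clock output factor, gave 269, 18.7 and 149.9 on the 2 day arrays and 309, 407 and 275 on the 14 day arrays (log2 change 1.84, SE 0.77), with a small gap between 269 and 275 at the edges of the groups. Tef, its relative, gave 1474, 554 and 629.5 on the 2 day arrays and 1955, 1101 and 1826 on the 14 day arrays (log2 change 0.98, SE 0.40), and the core clock genes Per1, Per2, Cry1 and Clock had values of -0.04, 0.20, 0.23 and 0.17, all with overlap. The median of the list was 0.19 without the 2 day replicate 2 and 0.42 without the 14 day replicate 1. The hour at which lenses were taken was not given in the sources used here. Of 26 immediate early genes 18 were lower and 8 higher with a median of -0.16. Atf3 was higher and Dusp1 and Klf4 lower without overlap, Dusp1, a phosphatase of MAP kinases, with 1268, 1454 and 1712 on the 2 day arrays and 895, 1127 and 1116 on the 14 day arrays (log2 change -0.50, SE 0.29). Fos gave 133, 141 and 219.7 on the 2 day arrays and 122, 678 and 502 on the 14 day arrays (log2 change 1.11, SE 0.60) and was high only on the 14 day replicates 2 and 3.

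Growth factor pathways that shape the lens were close to balance. Their members without overlap stand beside 2.82% higher and 4.9% lower over all genes. FGF signaling, which drives fiber differentiation, had 10 members higher and 8 lower (median 0.05), with Ptpn11 higher and Dusp1 lower without overlap, and its receptor Fgfr2 gave 2912, 1246 and 3089 on the 2 day arrays and 3116, 2339 and 2447 on the 14 day arrays (log2 change 0.22, SE 0.35). TGF-β and BMP signaling had 20 higher and 12 lower (median 0.26), with Acvr1 and Tgfbr2 higher and Smad5 and Tgfbr1 lower without overlap. Both subunits of the TGF-β receptor were dim, Tgfbr1 with 65.8, 143 and 228 on the 2 day arrays and 22.4, 45.8 and 42.9 on the 14 day arrays and Tgfbr2 with 13.2, 47.0 and 19.2 on the 2 day arrays and 50.1, 86.2 and 87.9 on the 14 day arrays. Wnt signaling had 18 higher and 15 lower (median 0.13), with Fzd2, Fzd4 and Wnt1 lower without overlap, and Notch signaling had 8 higher and 10 lower (median -0.05), with Herpud1 higher and Notch4 lower. In the IGF axis 7 were higher and 11 lower (median -0.03), and Hmga2 was lower without overlap. Igfbp2, an IGF binding protein, was higher without overlap with 426, 376 and 355 on the 2 day arrays and 984, 591 and 796 on the 14 day arrays (log2 change 1.01, SE 0.32), and Igf2, the fetal growth factor, gave 1730, 8194 and 2125 on the 2 day arrays and 891, 2908 and 3653 on the 14 day arrays (log2 change -0.56, SE 0.60). Imprinted growth genes were split 9 and 9 (median -0.01), and Sgce alone was without overlap (0.71).

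The lens capsule is a basement membrane that thickens with age. Of 26 measured capsule and basement membrane genes 13 were higher and 13 lower with a median log2 change of -0.03, Nid2, nidogen 2, being higher and Col15a1 lower without overlap. Col15a1, a collagen of vessel basement membranes, gave 192, 218 and 279 on the 2 day arrays and 90.8, 23.3 and 73.6 on the 14 day arrays (log2 change -2.08, SE 0.66). Hspg2, perlecan, gave 1037, 291 and 563 on the 2 day arrays and 895, 123 and 138 on the 14 day arrays (log2 change -1.16, SE 0.72) with overlap. The list was 8 higher and 18 lower, with a median of -0.26, without the 2 day replicate 2. Of 25 fibroblast and interstitial matrix genes 16 were higher and 9 lower (median 0.16), and Fbln1 and Mgp were the 2 without overlap, 8% against 2.82% of all genes. Thy1, a surface protein of fibroblasts and also of retinal ganglion cells, gave 57.9, 142 and 36.4 on the 2 day arrays and 62.4, 574 and 1026 on the 14 day arrays (log2 change 2.31, SE 0.89), high on the arrays that were high in retinal genes.

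The same interval was available in Dbl lenses, as 3 arrays of 2 days and 3 of 14 days, and the difference of the 2 changes was tested on all 18 arrays. In limma 0 probe sets passed at an adjusted p under 0.05 (lowest 0.999), and 399 (3.21%) had an unadjusted p under 0.05. Within Dbl lenses 0 passed and 690 (5.55%) had an unadjusted p under 0.05. Of the 15 genes named as higher in wt lenses, 14 were also fitted higher in Dbl lenses, with a median log2 change of 0.97, beside 56.1% of all genes higher in Dbl and a median of 0.08 over them. Their wt median, 1.86, is raised by the choice of these genes on the wt arrays, so the sizes cannot be compared. Col9a1 and Penk were the 2 without overlap in both genotypes, with log2 changes of 1.30 and 0.69 in Dbl. Of the 15 lower genes, 10 were lower in Dbl with a median of -0.41, and their wt median of -1.65 carries the same choice. Kif20a, Snx17 and U2af1 were lower without overlap in both genotypes, with -2.97, -0.89 and -1.04 in Dbl, where 5.6% of all genes were higher and 3.48% lower without overlap. The G2/M list was also mostly lower in Dbl lenses, 33 of 35 with a median of -1.35, beside 43.9% of all genes lower, and 3 of the 35 were without overlap (8.57% against 3.48% of all genes). There too the 2 day arrays were far apart, with sums of 49814, 15845 and 78177 against 13528, 17882 and 16385 at 14 days. The Dbl 2 day replicate 2 was most like a Dbl array of 42 days (r = 0.958), and the Dbl 42 day replicate 2 most like one of 2 days (r = 0.951). The Dbl 14 day replicate 1, deposited at a trimmed mean of 95.2, correlated at 0.610 to 0.625 with its own group and was most like the wt 14 day replicate 1 (r = 0.809). Without the first 2 of these arrays the Dbl medians were 1.78 for the 15 higher genes, -1.28 for the 15 lower genes and -2.44 for the G2/M list.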

How the data were processed

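Lens RNA of 3 pools per group was measured on 18 arrays. The intensity values are 1 signal per probe set that the authors made with MAS5 and deposited; no detection calls or scanner files were used here, and the array number limits precision. Each array was scaled to a 2% trimmed mean of 500 and signals under 1 were set to 1 before log2. Of 12488 probe sets, 66 controls were left out. Gene symbols came from the platform annotation (10833 probe sets with 1 symbol, 396 with several and 1193 with none). A gene was read by its brightest probe set over the 6 arrays. The 15 genes named first each way were instead picked among all probe sets with 1 symbol. The 9 wt arrays were fitted with limma 3.58.1 in R 4.3.3 (lmFit, eBayes with trend), contrast 14 minus 2 days, with Benjamini-Hochberg adjustment, two-sided. The difference from Dbl lenses was fitted on 18 arrays. The fit was tested on simulated data. The methods' fold rule and U test were made for Dbl against wt; here the rule became a 1.5-fold ratio with no overlap. Named were the 15 genes each way with the smallest p among those without overlap and above the median signal (none passed the adjusted test), up to 5 members of each of 42 gene lists with the smallest p, and textbook genes. Other genes named, such as list members without overlap, were chosen after their values were seen. Members and lists were chosen with earlier results of these data known. Replicate numbers were checked for pairing by correlating deviations from the group means between arrays of the 2 ages. Same-numbered arrays correlated at 0.53, 0.34 and 0.03, and differently numbered ones at -0.51 to 0.27. For numbers 1 and 2 the same-numbered value was the highest, and for number 3 it was not. The main fit did not pair the arrays. Python 3.11.15, numpy 2.4.6, pandas 2.3.3 and matplotlib 3.10.9 were used otherwise. Promoter windows are those of RefSeq on GRCm38.p6.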

Additional observations from a re-analysis of the deposited data

How the results depend on the processing

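The count of probe sets past the adjusted threshold was 0 in each direction by limma, and stayed 0 under median scaling, quantile normalization, a signal floor at the 40th percentile, an offset of 50, dim probe sets left out, 18 or 6 arrays in the fit, and no trend. Leaving out 1 array at a time gave 0 to 1 probe sets higher and 0 to 0 lower. The 1 was Serpina3n without the 2 day replicate 3 (log2 change 3.24), and the cause was not tested. The methods' rule, which uses no adjusted p, gave 246 higher and 510 lower. A fit with a replicate block called 0, with 481 at an unadjusted p under 0.05, and not every array correlated best with its own number. Chosen after seeing the data, a block for the deposited scale, array weights, and leaving out both the 2 day replicate 2 and the 14 day replicate 1 called 0 each, with lowest adjusted p-values of 0.999, 0.240 and 0.116. With both arrays out, the medians of the G2/M, replication, fiber and photoreceptor lists were -0.43, -0.14, -0.44 and 1.42. Of 237 named genes 177 kept their sign under 21 alternatives and 60 did not, none of them among the 30 genes named first. For the 82 named without overlap, leaving out arrays cannot turn the sign of the group difference, so their keeping it is largely fixed by the choice, and Cd3d, Hbb-bh1, Krt14, Mcm6, Myh1 and Notch4 turned only under the signal floor. The difference from Dbl lenses called 0 in every setting.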

Other observations

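Of the 5 metabolic lists, glycolysis, oxidative phosphorylation and antioxidant genes had more members higher than lower, and each of these depended on 1 array. Of 22 measured glycolysis and glucose uptake genes 19 were higher and 3 lower at 14 days with a median log2 change of 0.36 and 0 without overlap, but without the 2 day replicate 2 the counts were 13 and 9 with a median of 0.04. Aldoc, an aldolase of glycolysis, gave 15413, 1145 and 10166 on the 2 day arrays and 24376, 8289 and 9503 on the 14 day arrays (log2 change 1.14, SE 0.78), low on that array and -0.01 without it. Of 44 oxidative phosphorylation genes 30 were higher and 14 lower (median 0.16), with Atp5a1 and Cycs higher without overlap, and without the 2 day replicate 2 the counts were 21 and 23 (median -0.05). Cholesterol synthesis genes were split 11 and 13 (median -0.03), with Srebf1 higher without overlap. Of 37 glutathione and antioxidant genes 20 were higher and 17 lower (median 0.08), and 11 and 26 without the 2 day replicate 2 (median -0.12). Gstt1, a glutathione transferase, gave 54.5, 23.3 and 80.6 on the 2 day arrays and 163, 285 and 314 on the 14 day arrays (log2 change 2.39, SE 0.63), and Mt1 was the other member higher without overlap, while Gsta1 and Srxn1 were lower. Of 17 amino acid and nutrient transporters 8 were higher and 9 lower (median -0.09). Slc6a9, a glycine transporter, gave 1867, 1575 and 1626 on the 2 day arrays and 2208, 2520 and 2411 on the 14 day arrays (log2 change 0.50, SE 0.30), and the groups stood apart. Slc6a6, the taurine transporter, gave 2825, 2508 and 5614 on the 2 day arrays and 4218, 8274 and 8235 on the 14 day arrays (log2 change 0.95, SE 0.38), and overlapped.

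Genes of RNA and protein handling were more often lower or close to balance. Their members without overlap stand beside 2.82% higher and 4.9% lower over all genes. Of 28 splicing genes 22 were lower and 6 higher (median -0.24), with Prpf19, Snrpe and U2af1 lower and Clk1 and Hnrnpu higher without overlap, and without the 2 day replicate 2 the counts were 16 and 12. U2af1, a subunit of the factor that reads 3′ splice sites, gave 1760, 1556 and 1049 on the 2 day arrays and 831, 799 and 644 on the 14 day arrays (log2 change -0.92, SE 0.30). Ribosomal proteins were split 15 higher and 13 lower (median 0.03), translation factors 13 and 18 (median -0.04), heat shock and folding genes 22 and 19 (median 0.05), and pro-apoptotic genes 13 and 12 (median 0.00). Without overlap, the ribosomal protein Rps14 and the translation genes Eif4ebp1 and Eif5a were lower, and Hspa1a was higher. Bad, a pro-apoptotic Bcl2 relative, was lower without overlap with 844, 871 and 771 on the 2 day arrays and 620.5, 504 and 629 on the 14 day arrays (log2 change -0.51, SE 0.28). Its dimmer second probe set overlapped (-0.05), and Cycs, of the same list, was higher without overlap.

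Immune and surface genes gave values on both sides of 0. Antigen presentation genes were split 14 higher and 16 lower (median -0.01), complement genes 13 and 9 (median 0.09), and lymphocyte genes 3 and 14 (median -0.31) at low signals, 11 of 17 with a mean under 129. Corneal and surface epithelium genes were 8 higher and 20 lower (median -0.20) and skeletal muscle genes 11 and 16 (median -0.15). H2-K1, a class I antigen, was higher without overlap by a very narrow gap, with 717, 658 and 732 on the 2 day arrays and 735, 1074 and 1399 on the 14 day arrays (log2 change 0.56, SE 0.32). Its other probe sets disagreed, 1 with overlap at -0.91 and a dim one higher without overlap (1.23). Mx2, an interferon response gene, was lower with 95.9, 149 and 238 on the 2 day arrays and 59.5, 60.5 and 24.8 on the 14 day arrays (log2 change -1.75, SE 0.57).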
